A study of Bos taurus with 6 samples.

Results

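IFI6 and IFI27 are small membrane proteins whose genes are switched on by interferon. The pair was chosen by gene symbol, as interferon-induced genes already known to be higher in the siMTFP1 libraries of this series, and makes up 2 of the 17325 genes in the deposited tables. Their difference between the groups therefore chose them and is given here as a description, without a test. The series holds messenger RNA from bovine oocytes at metaphase II, the stage of meiotic arrest in which the egg awaits fertilization, after maturation in vitro. 3 libraries carry the label siMTFP1 (MTFP1 knockdown) and 3 carry the label NC (negative control). Breed, animal age, the sequence and dose of the silencing agent, and the number of oocytes per library are not given in the sources used here. MTFP1 encodes an inner mitochondrial membrane protein linked to organelle fission. Nothing in the labels says whether libraries of a group came from separate collections, so the spread between them may be technical.

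Interferons are secreted signals of viral infection. A type I interferon binds the receptor chains IFNAR1 and IFNAR2, the kinases JAK1 and TYK2 phosphorylate transcription factors such as STAT2, which acts with IRF9 in the nucleus to start transcription of interferon-stimulated genes. In human cells IFI6 has been described at mitochondria, where it restrains apoptosis, and at the endoplasmic reticulum membrane, where it works with the chaperone HSPA5 against flaviviruses. Human IFI27, also called ISG12a, has been placed at mitochondria and at the nuclear envelope and has been linked to sensitivity to apoptosis. In cattle both genes are known from the uterus and from blood leukocytes of early pregnancy, where they answer to interferon tau made by the conceptus. RNA measurements say nothing of where a protein resides, so the mitochondrial location is background and was not measured.

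The unit throughout is FPKM (fragments per kilobase, relative to a library's mapped total), a length-corrected level that can be compared between genes. FPKM sums per library lay between 784366 and 892790.4, with 15120 to 15533 genes above 0, and the number of reads behind them is unknown. The targeted gene did not follow the labels. MTFP1 stood at 0.43, 0.58 and 1.15 FPKM in siMTFP1 libraries 1, 2 and 3, against 0.53, 0.55 and 0.05 FPKM in NC libraries 1, 2 and 3 (exact two-sided permutation test of the log2 levels, p = 0.4, smallest possible p 0.1). The group names below are therefore those of the labels. Oocyte markers summed to 32732 to 33085 FPKM in the siMTFP1 libraries and to 33710 to 34362 FPKM in the NC libraries, and 17 of 17 matched markers were above 0 in each library. The most abundant were BTG4, an adaptor for maternal mRNA decay, at 9165 to 10090 FPKM in siMTFP1 and 9516 to 12079 FPKM in NC, and the linker histone H1FOO, at 6727 to 7872 and 6132 to 6798 FPKM, siMTFP1 before NC. The marker sums did not overlap between the groups. ZP2 was lower without overlap, at 3053 to 3241 FPKM in siMTFP1 and 4427 to 4768 FPKM in NC. Of the 17 markers, 1 was lower and 1 higher in siMTFP1 without overlap. Over the 9730 genes with a mean of at least 1 FPKM, 491 were lower and 581 higher in that way.

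IFI6 was low in the NC libraries and moderately abundant in the siMTFP1 libraries. It measured 32.42, 86.4 and 22.74 FPKM in siMTFP1 libraries 1, 2 and 3, against 2.82, 2.64 and 1.64 FPKM in NC libraries 1, 2 and 3. The groups did not overlap, and the lowest siMTFP1 library held 8.06 times the FPKM of the highest NC library. The siMTFP1 libraries differed among themselves by 3.80-fold, with library 2 well above the other two, while the NC libraries lay within 1.72-fold of each other. The mean was 47.2 ± 34.3 FPKM in siMTFP1 and 2.37 ± 0.636 FPKM in NC (SD, n = 3 each), a ratio of means of 19.9. On the log2(FPKM + 1) scale the difference was 3.63 (SE 0.42), siMTFP1 minus NC.

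IFI27 was also higher in the siMTFP1 libraries, with a smaller gap. It measured 37.99, 37.31 and 18.6 FPKM in siMTFP1 libraries 1, 2 and 3, against 5.75, 1.28 and 8.38 FPKM in NC libraries 1, 2 and 3. The groups did not overlap, and the lowest siMTFP1 library held 2.22 times the FPKM of the highest NC library. Here the spread lay mostly in the controls, which differed by 6.55-fold with library 2 lowest, whereas the siMTFP1 libraries differed by 2.04-fold. The mean was 31.3 ± 11.0 FPKM in siMTFP1 and 5.14 ± 3.59 FPKM in NC (SD, n = 3 each), a ratio of means of 6.09. The log2 difference was 2.55 (SE 0.49), and 1.95 without NC library 2.

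**Figure D1:**
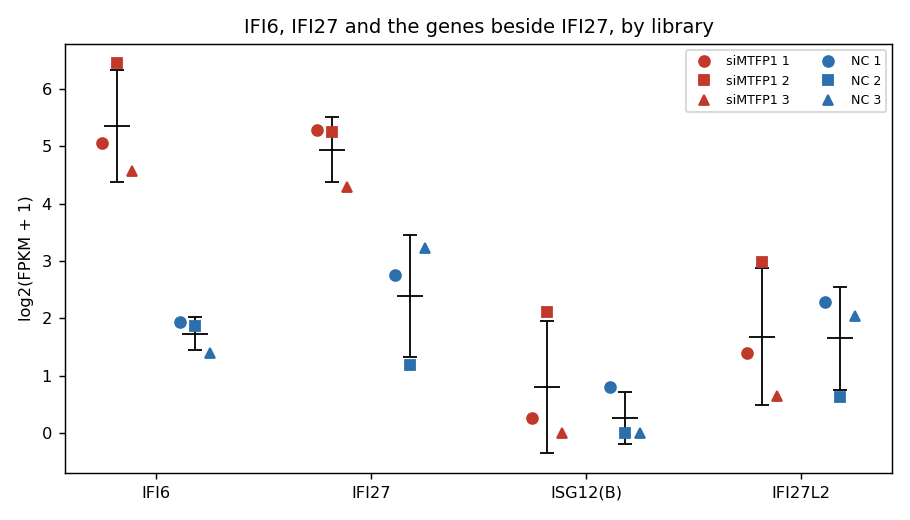
Levels of IFI6, IFI27, ISG12(B) and IFI27L2 as log2(FPKM + 1), with 1 symbol per library (red siMTFP1, blue NC) and bars for the mean and SD of 3 libraries. IFI6 and IFI27 separate by label, with log2 differences of 3.63 and 2.55, while the groups overlap in ISG12(B) and IFI27L2.

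Within the whole transcriptome both genes lay in the upper part of the range in siMTFP1 and nearer the middle in NC. IFI6 lay at the 85.7, 92.6 and 82.9 percentiles of FPKM over 17325 genes in siMTFP1 libraries 1, 2 and 3, against 56.9, 57.2 and 52.1 in NC libraries 1, 2 and 3. IFI27 lay at percentiles 87.1, 87.2 and 80.9 in the siMTFP1 libraries, against 66.1, 48.2 and 72.8 in the NC libraries. Among 9730 genes with a mean of at least 1 FPKM over the 6 libraries, the log2 difference of IFI6 ranked 3 and that of IFI27 ranked 5 from the top. Of those genes, 0.904% had a log2 difference of 1 or more in this direction, and groups without overlap in this direction were found in 5.97%. Both shares come from the contrast that chose the pair, so nothing is read from them. IFI6 and IFI27 each passed the level of 1 FPKM in the NC libraries alone, so neither entered through its siMTFP1 level.

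**Figure D2:**
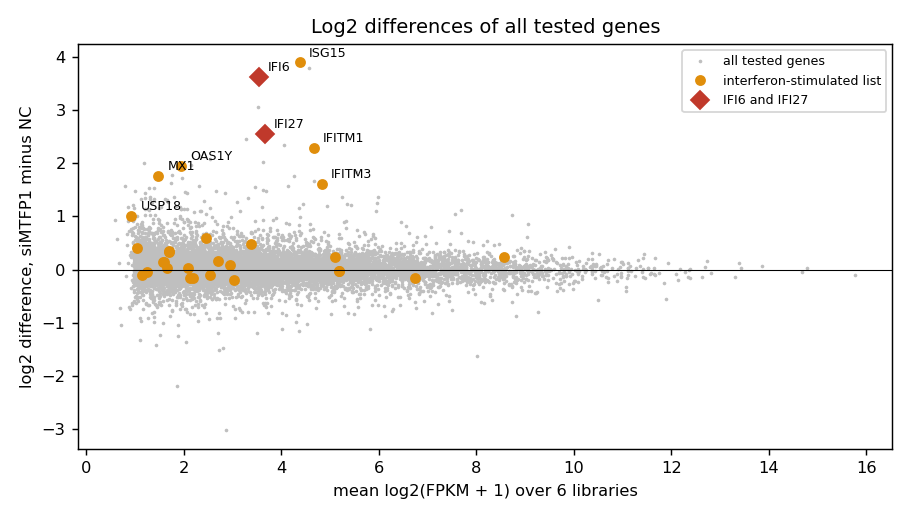
Each point is 1 of 9730 tested genes, placed by its mean log2(FPKM + 1) over 6 libraries and its log2 difference, siMTFP1 minus NC. IFI6 and IFI27 (red diamonds) and other interferon-stimulated genes with a log2 difference of at least 1 (named) lie above the bulk, while most of the list (orange) lies near 0.

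The pair did not keep a fixed proportion. The ratio of IFI6 to IFI27, both in FPKM, was 0.853, 2.32 and 1.22 in siMTFP1 libraries 1, 2 and 3, against 0.490, 2.06 and 0.196 in NC libraries 1, 2 and 3. These ranges overlap, and in each group library 2 had the highest ratio. In siMTFP1 library 2 this followed a high IFI6 beside an IFI27 close to that of library 1. In NC library 2 it followed a low IFI27 beside an IFI6 close to that of NC library 1.

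IFI27 lies in a small cluster of related genes, and the relatives beside it did not separate by label. In the RefSeq annotation of assembly ARS-UCD2.0, used for gene order, IFI27 (synonym ISG12(A)) stands between ISG12(B) and IFI27L2, with no other annotated gene between. IFI27L2, a family member of less studied function, measured 1.63, 6.91 and 0.56 FPKM in siMTFP1 libraries 1, 2 and 3, against 3.88, 0.54 and 3.1 FPKM in NC libraries 1, 2 and 3. The groups overlapped. The log2 difference was 0.03 (SE 0.61, limma with Benjamini-Hochberg over 9730 genes, adjusted p = 0.999). ISG12(B) was listed at 0.2, 3.34 and 0 FPKM in siMTFP1 libraries 1, 2 and 3, against 0.73, 0 and 0 FPKM in NC libraries 1, 2 and 3. It lay below the level filter, with its highest value in siMTFP1 library 2. Whether the difference of IFI27 exceeds that of IFI27L2 was not tested. The sources used here do not say how the authors divided reads between such similar copies, and the values of all 3 are uncertain to that extent.

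Beyond the cluster, the next genes in the files were PPP4R4, a phosphatase regulatory subunit, and LOC514011. PPP4R4 measured 20.18, 25.19 and 21.99 FPKM in the siMTFP1 libraries, against 33.2, 19.89 and 27.22 FPKM in the NC libraries. LOC514011 averaged 3.53 ± 0.921 FPKM in siMTFP1 and 3.48 ± 0.970 FPKM in NC (SD, n = 3 each). The groups overlapped in both genes.

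IFI6 stands between FAM76A and FGR in that annotation, and its neighbours did not separate by label either. FGR, a kinase of the SRC family known from myeloid cells, measured 1.54, 1.57 and 1.51 FPKM in siMTFP1 libraries 1, 2 and 3, against 1.46, 1.53 and 1.43 FPKM in NC libraries 1, 2 and 3. FAM76A averaged 10.2 ± 2.10 FPKM in siMTFP1 and 12.5 ± 3.64 FPKM in NC, and the syntaxin STX12 averaged 71.5 ± 14.1 and 81.8 ± 4.90 FPKM (SD, n = 3 each, siMTFP1 before NC). AHDC1 stood at 0.02 FPKM or less in each library. Of the 6 neighbours that were tested on either side of IFI6 and IFI27, 0 passed the adjusted threshold of 0.05, with 0% of all 9730 genes called at that threshold and 6.53% reaching an unadjusted p under 0.05.

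The interferon genes, upstream of the pair, were mostly near 0. Of 10 matched, 2 passed the level filter. IFNB1, encoding interferon beta, measured 3.82, 16.62 and 18.43 FPKM in siMTFP1 libraries 1, 2 and 3, against 11.14, 3.02 and 0.71 FPKM in NC libraries 1, 2 and 3. The groups overlapped, and IFNB1 differed by 1.44 on the log2 scale (SE 0.73, adjusted p = 0.801 in limma). siMTFP1 library 1 was the lowest of its group in IFNB1, library 2 was the highest in IFI6 and library 1 the highest in IFI27, and the part of IFNB1 in the levels of the pair was not tested. IFNL3, a type III interferon, averaged 11.8 ± 4.37 FPKM in siMTFP1 and 15.3 ± 8.47 FPKM in NC (SD, n = 3 each). The trophoblast interferon gene IFNT2 was at 0.05 FPKM or less in each library. IFNB1, IFNL3 and IFNT2 were chosen after their values were seen.

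Receptors, kinases and factors of interferon signalling gave 15 tested genes of 24 matched, of which 11 were higher and 4 lower by mean in siMTFP1, with a median log2 difference of 0.08. Over all tested genes 54.2% had a higher mean, and the median was 0.02. None of the 15 passed the adjusted threshold in limma, and 0 reached an unadjusted p under 0.05, a level reached by 6.53% of all tested genes. The smallest p-values belonged to the transcription factor IRF3, STAT2, IRF9 and the receptor chain IL10RB. IRF3, which starts interferon transcription after virus sensing, averaged 2.19 ± 1.45 FPKM in siMTFP1 and 1.00 ± 0.152 FPKM in NC (SD, n = 3 each), without overlap. The gap was narrow, from 1.14 FPKM in NC library 3 to 1.16 FPKM in siMTFP1 library 1, with siMTFP1 library 2 at 3.85 FPKM. Of the 15, 1 (6.67%) had groups without overlap, siMTFP1 higher, beside 5.97% of all tested genes. STAT2 averaged 1.41 ± 0.444 FPKM in siMTFP1 and 0.823 ± 0.359 FPKM in NC, and passed the level filter through its siMTFP1 mean. IRF9 averaged 2.64 ± 0.354 and 1.91 ± 0.630 FPKM, and IL10RB 4.13 ± 0.432 and 4.95 ± 0.802 FPKM, siMTFP1 before NC.

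Among other targets of interferon, a few genes resembled IFI6 and IFI27 while most did not. Apart from the pair, the list of interferon-stimulated genes had 58 matched members. By mean log2 level 38 of them were higher and 20 lower in siMTFP1, with a median difference of 0.11 over all 58. Without the filter 9551 of all genes were higher and 7767 lower, with a median of 0.01. Of the 58, 28 passed the level filter, 3 of these through their siMTFP1 mean alone. Among these 28, 19 were higher and 9 lower, with a median of 0.15. Over all tested genes 54.2% were higher, with a median of 0.02. Of the 28, 0 passed the adjusted threshold in limma and 6 reached an unadjusted p under 0.05, all 6 higher in siMTFP1, where 6.53% of all tested genes reached that level in either direction. Groups without overlap, siMTFP1 higher, were found in 4 of 28 (14.3%), beside 5.97% of all tested genes. Among the 25 with an NC mean of at least 1 FPKM they were found in 2 (8.0%), beside 5.44% of all genes held to that level. Of the 28, 6 had a log2 difference of 1 or more, beside 0.904% of all tested genes, and 0 had one of -1 or less, beside 0.185%. The same 6 genes reached the unadjusted p under 0.05. They include MX1 and USP18, which entered through their siMTFP1 mean alone, so these counts depend in part on the filter.

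The 4 genes without overlap were ISG15, MX1, OAS1Y and USP18. ISG15, a ubiquitin-like modifier, measured 66.62, 138.75 and 53.49 FPKM in siMTFP1 libraries 1, 2 and 3, against 8.39, 2.12 and 4.36 FPKM in NC libraries 1, 2 and 3. Its siMTFP1 libraries follow the same order as those of IFI6, with library 2 highest and library 3 lowest. ISG15 differed by 3.89 on the log2 scale (SE 0.44, adjusted p = 0.0828 in limma). The antiviral GTPase gene MX1 measured 3.04, 8.23 and 2.63 FPKM in the siMTFP1 libraries, against 1.59, 0.34 and 0 FPKM in the NC libraries. OAS1Y, an oligoadenylate synthetase that starts RNA decay, measured 4.08, 16.09 and 3.94 FPKM in siMTFP1, against 3.24, 0.32 and 0.33 FPKM in NC. USP18, which strips ISG15 from proteins and dampens receptor signalling, measured 1.17, 3.85 and 0.87 FPKM in siMTFP1, against 0.25, 0.37 and 0.39 FPKM in NC. MX1 and USP18 are 2 of the 3 genes that passed the filter through siMTFP1.

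The membrane proteins IFITM1 and IFITM3, which block entry of viruses, overlapped between the groups, with NC library 1 above siMTFP1 library 1 in IFITM1 and above siMTFP1 library 3 in both. IFITM1 measured 32.4, 122.84 and 41.95 FPKM in siMTFP1 libraries 1, 2 and 3, against 51.19, 2.99 and 6.32 FPKM in NC libraries 1, 2 and 3. IFITM3 measured 48.32, 78.41 and 30.45 FPKM in siMTFP1, against 44.38, 12.89 and 5.84 FPKM in NC. IFI6 showed no such high value in NC library 1. IFI16, a DNA sensor, averaged 11.4 ± 2.27 FPKM in siMTFP1 and 7.98 ± 2.40 FPKM in NC (SD, n = 3 each). The limma adjusted p-values of MX1, OAS1Y, USP18, IFITM1, IFITM3, IFI16 and STAT2 lay between 0.583 and 0.816.

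The other 30 matched genes of the list lay below the level filter. Of these, LGALS3BP, a secreted glycoprotein, stood without overlap at 0.41, 1.25 and 0.65 FPKM in siMTFP1 libraries 1, 2 and 3, against 0.04, 0 and 0 FPKM in NC libraries 1, 2 and 3. PARP14, a mono-ADP-ribosyltransferase, did not overlap either, at 0.43, 0.61 and 0.44 FPKM in siMTFP1, against 0.36, 0.29 and 0.36 FPKM in NC. They were the only genes of these 30 without overlap. Over all 17318 genes tested with no filter, 981 had groups without overlap in this direction, so nothing is read from it. Several other genes of the list stood near 0 in libraries in which IFI6 and IFI27 were abundant. MX2, OASL and SP100 were at 0.03 FPKM or less in each library. RSAD2, the antiviral enzyme viperin, was listed at 0.42 FPKM in siMTFP1 library 1 and at 0 in the other 5 libraries. IFI44 was listed at 0 in each siMTFP1 library, against 0.09, 0 and 0 FPKM in NC libraries 1, 2 and 3. IFIT3 overlapped at 3.13 ± 0.123 FPKM in siMTFP1 and 3.73 ± 1.16 FPKM in NC (SD, n = 3 each). LGALS3BP, PARP14 and the 6 genes after them were picked once their values were known. By FPKM among the 60 matched genes of the list, the pair included, IFI6 took place 8, 5 and 9 in siMTFP1 libraries 1, 2 and 3, against place 21, 16 and 22 in NC libraries 1, 2 and 3. IFI27 took place 6, 8 and 10 in the siMTFP1 libraries, against place 14, 24 and 7 in the NC libraries.

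**Figure D3:**
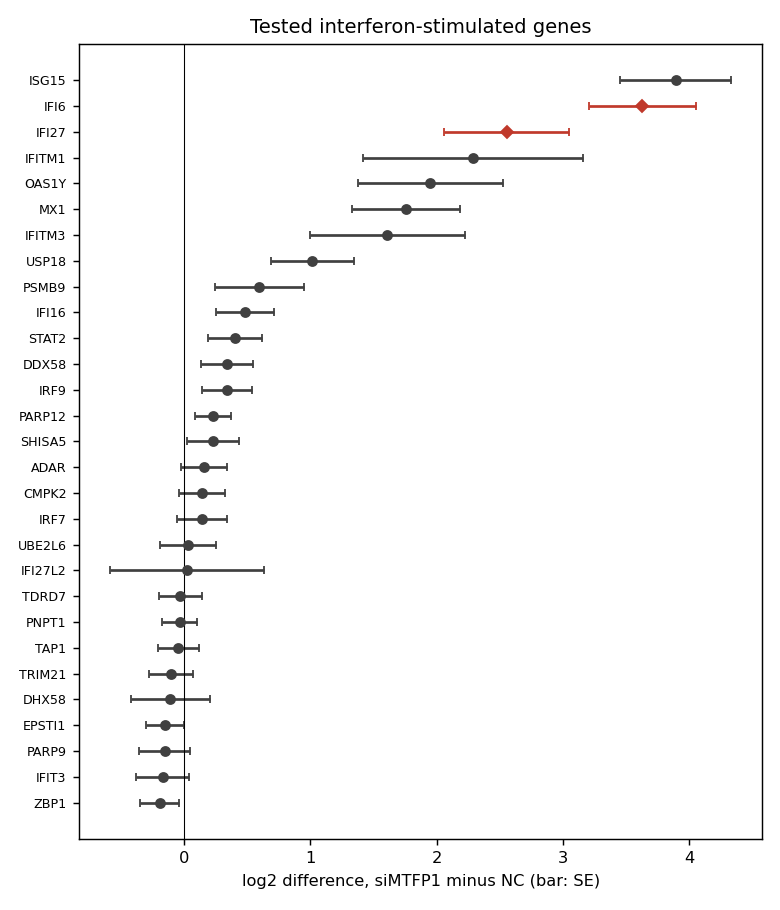
Log2 differences, siMTFP1 minus NC, of 29 tested interferon-stimulated genes with SE bars, 3 libraries per group. IFI6 and IFI27 (red diamonds) rank with ISG15 at the top, 8 genes reach a log2 difference of 1, and the rest shown lie between -0.19 and 0.60.

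The likeness of single genes to the pair was measured over the 6 libraries as the root mean square difference of log2(FPKM + 1) profiles, each centred on its own mean. The 5 genes nearest to IFI6 were ISG15 (0.509), RETREG1 (0.850), OAS1Y (0.976), MX1 (0.989) and IFI27 (0.994), with a median over all tested genes of 1.90. Of these, 4 belong to the interferon list, which holds 0.308% of all tested genes, the pair included. IFI27, among the 4, was itself chosen for its difference by label. The measure follows in large part the difference by label that chose IFI6, and MX1 passed the level filter through siMTFP1 alone, so this is a description. RETREG1, a receptor for autophagy of the endoplasmic reticulum, measured 3.34, 9.43 and 1.09 FPKM in siMTFP1 libraries 1, 2 and 3, against 0.18, 0.04 and 0.18 FPKM in NC libraries 1, 2 and 3. Its values do not overlap, with siMTFP1 library 2 highest, and it passed the level filter through siMTFP1 alone (limma adjusted p = 0.583).

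The genes nearest to IFI27 shared 1 name, RETREG1, with those nearest to IFI6. For IFI27 they were TMEM176A (0.521), MFGE8 (0.538), C19H17orf67 (0.723), ITM2B (0.756) and RETREG1 (0.761), with a median over all tested genes of 1.46, and none of the 5 is on the interferon list. IFI6 ranked 37 from IFI27, although IFI27 ranked 5 from IFI6. TMEM176A, a membrane protein, measured 15, 28.79 and 23.57 FPKM in siMTFP1 libraries 1, 2 and 3, against 4.34, 0.36 and 8.66 FPKM in NC libraries 1, 2 and 3. MFGE8, a secreted glycoprotein that bridges dying cells to phagocytes, measured 29.77, 47.67 and 17.77 FPKM in siMTFP1, against 12.38, 3.82 and 15.8 FPKM in NC. Both share with IFI27 the low value of NC library 2 and the higher one of NC library 3. The log2 differences of the 5 genes ranged from 1.35 for ITM2B to 2.46 for TMEM176A, and their limma adjusted p-values from 0.583 to 0.669. C19H17orf67 averaged 0.933 FPKM in NC, so it passed the level filter through siMTFP1 alone, as RETREG1 did. All 5 genes were picked for resembling a gene that differs by label, so their differences are no independent evidence.

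**Figure D4:**
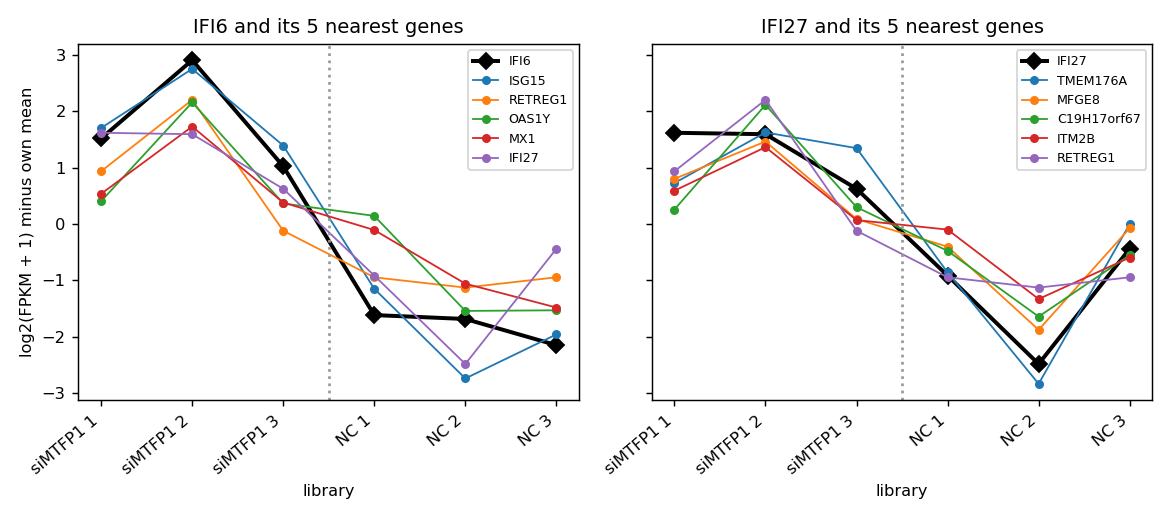
Profiles over 6 libraries (siMTFP1 left, NC right of the dotted line) as log2(FPKM + 1) minus each gene's own mean, for IFI6 (left panel) and IFI27 (right panel) in black with their 5 nearest genes. IFI6 peaks in siMTFP1 library 2 with ISG15, while IFI27 dips in NC library 2 with TMEM176A and MFGE8.

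The proteins that human IFI6 and IFI27 have been reported to bind were expressed in each library at levels that overlapped between the groups. HSPA5, the endoplasmic reticulum chaperone reported with IFI6, measured 7.31, 10.19 and 7.43 FPKM in siMTFP1 libraries 1, 2 and 3, against 7.65, 5.81 and 7.09 FPKM in NC libraries 1, 2 and 3. SKP2, a ubiquitin ligase subunit reported with IFI27, averaged 230 ± 28.6 FPKM in siMTFP1 and 240 ± 19.8 FPKM in NC (SD, n = 3 each). It exceeded IFI27 in each library. The nuclear receptor NR4A1 averaged 45.5 ± 11.1 FPKM in siMTFP1 and 39.9 ± 4.28 FPKM in NC, and the nuclear exporter XPO1 averaged 15.9 ± 3.06 and 14.6 ± 2.19 FPKM, siMTFP1 before NC. Log2 differences of the 4 partners lay between -0.06 and 0.24, with limma adjusted p-values from 0.884 to 0.965.

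The mitochondrial route to apoptosis, on which human IFI6 and IFI27 have been described to act, had 21 tested genes of 30 matched. By mean, 15 were higher and 6 lower in siMTFP1, with a median log2 difference of 0.03, beside a median of 0.02 and 54.2% higher over all tested genes. None passed the adjusted threshold in limma, as over all genes (0%), and 0 reached an unadjusted p under 0.05, beside 6.53% of all tested genes. The 4 smallest p-values were those of DIABLO, which frees caspases from their inhibitors, and of the survival factors BCL2L2, BCL2L1 and BCL2L10. DIABLO averaged 2.79 ± 0.860 FPKM in siMTFP1 and 1.98 ± 0.902 FPKM in NC (SD, n = 3 each). BCL2L2 averaged 4.01 ± 0.337 FPKM in siMTFP1 and 3.34 ± 0.249 FPKM in NC, without overlap, and BCL2L1 averaged 8.26 ± 1.16 and 7.07 ± 0.872 FPKM, siMTFP1 before NC. Of the 21, 1 (4.76%) had groups without overlap, siMTFP1 higher, beside 5.97% of all tested genes. BCL2L10, abundant in oocytes, averaged 4076 ± 133 FPKM in siMTFP1 and 3765 ± 305 FPKM in NC. Their adjusted p-values lay between 0.881 and 0.894.

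Markers of cells other than the oocyte were followed beside the pair, because in bulk RNA fewer cells of a type and less RNA per cell cannot be told apart. The 25 matched cumulus and granulosa markers summed to 213, 1186 and 219 FPKM in siMTFP1 libraries 1, 2 and 3, against 391.5, 178 and 311 FPKM in NC libraries 1, 2 and 3. The groups overlapped, and siMTFP1 library 2, highest in IFI6, was also highest in this sum, to which TIMP1 gave 955 FPKM. NC library 2, lowest in IFI27, was lowest in the sum. TIMP1 gave 24.96 and 32.02 FPKM in siMTFP1 libraries 1 and 3, against 190.71, 13.14 and 156.93 FPKM in NC libraries 1, 2 and 3. The order of the sums thus rests in part on this gene. Mean log2 levels of the 25 markers were 1.83, 2.46 and 2.03 in siMTFP1 libraries 1, 2 and 3. In NC libraries 1, 2 and 3 they were 2.24, 1.52 and 1.84. FSHR, the receptor for follicle-stimulating hormone, was listed at 0 except for 0.02 FPKM in NC library 3, and CYP19A1, the granulosa aromatase, stayed at 0.24 FPKM or less. From 2 to 5 of the 25 markers were at 0 in a library. Of 16 tested cumulus markers 12 were higher and 4 lower by mean in siMTFP1, with a median log2 difference of 0.23, beside 54.2% higher and a median of 0.02 over all tested genes. In limma 0 passed the adjusted threshold and 3 (VIM, SPARC and INHA, all higher in siMTFP1) reached an unadjusted p under 0.05, a level that 6.53% of all tested genes reached. VIM, an intermediate filament of somatic cells, measured 4.71, 13.8 and 6.56 FPKM in siMTFP1 libraries 1, 2 and 3, against 6.67, 0.4 and 1.25 FPKM in NC libraries 1, 2 and 3. The matrix gene SPARC measured 2.23, 8.19 and 4.88 FPKM in siMTFP1, against 3.46, 0.56 and 0.48 FPKM in NC, and the inhibin subunit gene INHA measured 6.53, 15.65 and 1.42 FPKM in siMTFP1, against 1.98, 0.65 and 1.99 FPKM in NC. CYP11A1, which starts steroid synthesis, differed by 1.01 on the log2 scale, and in all 4 genes the groups overlapped. TNFAIP6 went the other way, at 1.06, 2.84 and 1.16 FPKM in siMTFP1, against 5.31, 1.51 and 17.14 FPKM in NC (log2 difference -1.36), also with overlap. PTX3 (-0.34), HSD3B1 (-0.28) and PTGS2 (-0.03) were lower too. Log2 differences of 1 or more were found in 4 of the 16, and of -1 or less in 1, beside 0.904% and 0.185% of all tested genes. Apart from TIMP1 and STAR, these marker genes were picked once their values were known. STAR, the most abundant of the list after TIMP1, averaged 66.5 ± 1.94 FPKM in siMTFP1 and 64.8 ± 9.28 FPKM in NC (SD, n = 3 each).

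Without siMTFP1 library 2 the log2 difference was 3.08 for IFI6 and 2.40 for IFI27. In siMTFP1 libraries 1 and 3, IFI6 stood at 32.42 and 22.74 FPKM with cumulus sums of 213 and 219 FPKM. The sum was 391.5 FPKM in NC library 1, in which IFI6 was 2.82 FPKM, and 178 and 311 FPKM in NC libraries 2 and 3. TIMP1 gave 24.96 and 32.02 FPKM of the sums in siMTFP1 libraries 1 and 3, and 190.71 FPKM of that in NC library 1. Of the 28 other tested interferon-stimulated genes, 11 (39.3%) had their highest value in siMTFP1 library 2, beside 15.5% of all tested genes. These 11 include MX1 and USP18, which passed the level filter through siMTFP1 alone, so the share depends in part on the filter. IFI27 had its highest value in siMTFP1 library 1, as did 2 of the 28 (7.14%), beside 21.9% of all tested genes. The part of the cumulus markers in the levels of the pair was not tested.

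The 18 matched leukocyte markers summed to 11.1, 16.5 and 26.4 FPKM in siMTFP1 libraries 1, 2 and 3, against 20.0, 23.2 and 25.7 FPKM in NC libraries 1, 2 and 3. The pan-leukocyte marker PTPRC was listed at 0 in 5 libraries and at 0.05 FPKM in NC library 2, and CD14 was listed at 0 in 5 libraries. From 4 to 7 of the 18 were at 0 in a library. FCER1G, the most abundant of them, averaged 7.91 ± 6.11 FPKM in siMTFP1 and 12.6 ± 3.99 FPKM in NC, and CD3E averaged 2.52 ± 0.760 and 2.69 ± 1.15 FPKM (SD, n = 3 each, siMTFP1 before NC). The siMTFP1 library with the lowest leukocyte sum, library 1, had the highest IFI27. FCER1G alone gave 3.02, 5.96 and 14.76 FPKM of the sums in siMTFP1 libraries 1, 2 and 3. In NC libraries 1, 2 and 3 it gave 8.97, 11.95 and 16.88 FPKM. The part of the leukocyte markers in the levels of the pair was not tested.

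**Figure D5:**
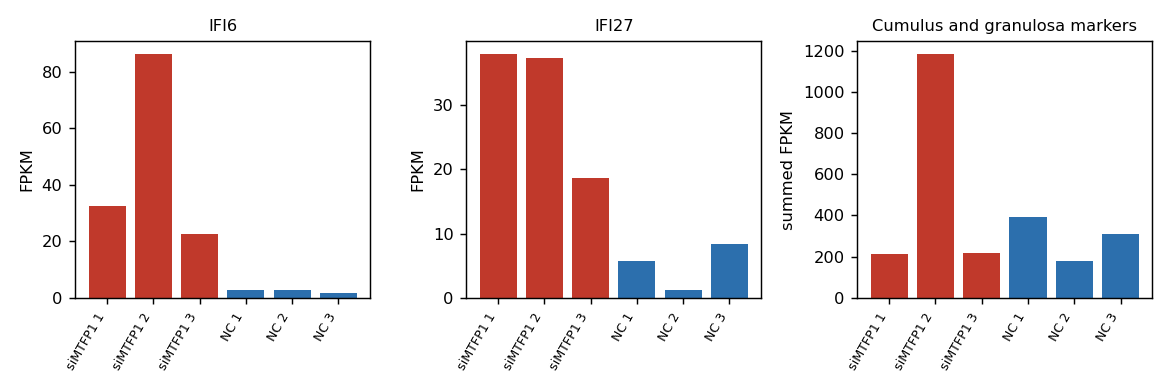
FPKM of IFI6 and of IFI27 and summed FPKM of 25 cumulus and granulosa markers in each library (red siMTFP1, blue NC). The marker sum stands apart in siMTFP1 library 2 at 1186 FPKM, of which TIMP1 gave 955 FPKM. IFI6 and IFI27 are higher in all 3 siMTFP1 libraries than in any NC library.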

How the data were processed

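Total RNA was extracted with TRIzol and made into libraries with a BGI mRNA kit (labels' protocols). As deposited by the authors, the tables hold 1 FPKM value per gene and library, with 2 decimals. Build ARS-UCD1.2 and the tools RSEM 1.3.1, HISAT2 2.2.1, DESeq2 1.4.5 and Bowtie2 2.3.4.3 are named, without roles, per the submitters' processing notes. Gene order came from RefSeq of ARS-UCD2.0, and since the builds differ, no coordinates are printed. 24 symbols that a spreadsheet had turned into dates were restored from gene IDs. FPKM keeps no read total, so depth is unknown. The commonest log2 ratio of low values (0.05 to 0.3 FPKM) lay within 0.1 of 0 in 15 of 15 library pairs.

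Groups follow the titles. Values were transformed to log2(FPKM + 1), which understates changes of low genes, and genes with a mean of at least 1 FPKM were tested with limma 3.58.1 in R 4.3.3 (trend, two-sided, Benjamini-Hochberg over 9730 genes, threshold 0.05), after a run on simulated data. FPKM values are no counts, so no count model was used. Members and lists were chosen with earlier results of these data known. The text names the pair, MTFP1, family members, reported partners, neighbours, the 5 nearest profiles, and by smallest p up to 8 interferon-stimulated, 4 signalling and 4 apoptosis genes. For each marker list it names the 2 most abundant members. Other genes named were chosen after their values were seen. 1 gene of the interferon lists, included in their counts, is not reported here by itself.

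Alternatives were pseudocounts 0.1 and 5, no filter or a minimum of 5 FPKM, 3 scalings, the replicate number as a block and leaving out each library. Python 3.11.15, pandas 2.3.3, scipy 1.17.1 and matplotlib 3.10.9 were used.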

Additional observations from a re-analysis of the deposited data

How the results depend on the processing

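IFI6 and IFI27 were higher in siMTFP1 under all 14 alternatives, an outcome largely fixed in advance. The groups overlap in neither gene, so changing the pseudocount or leaving out a library could not reverse the direction. The filters and the replicate block could not move the values at all. The log2 difference of IFI6 ranged from 2.63 (pseudocount 5) to 4.06, and from 3.08 to 4.02 with 1 library left out. That of IFI27 ranged from 1.86 to 2.97, and from 1.95 (without NC library 2) to 2.97 with 1 library left out. A pseudocount of 5 lowers both by construction. The median of the other interferon-stimulated genes stayed between 0.08 and 0.26. The limma fit called 0 genes over all genes, 2 with a minimum of 5 FPKM, 2 with equal sums, and 0 to 2 with 1 library left out, with 635 at an unadjusted p under 0.05 (376 higher, 259 lower in siMTFP1). That number was 1041 with no filter, 358 with the minimum of 5 FPKM and 335 without siMTFP1 library 2, and its split was 322 higher against 327 lower by median-ratio factors, and 306 higher against 357 lower with quantile-normalized values. ISG15 passed with the minimum of 5 FPKM (log2 difference 3.89, limma adjusted p = 0.0389) and with equal sums (3.94, 0.0197), in a range of adjusted p over the alternatives up to 0.698. Genes without overlap, siMTFP1 higher, numbered 581, against 981 with no filter (more genes tested), 308 with the minimum of 5 FPKM (fewer genes tested) and 819 to 1424 with 1 library left out (fewer samples). Same-numbered libraries did not deviate together (correlations of deviations across genes of 0.03, -0.16 and 0.07), so the numbers are not taken as pairs. With the replicate number as a block, limma called 0 genes. The log2 differences of the pair stayed at 3.63 and 2.55 by construction, since a block cannot change them in this balanced design. Their SE with the block was 0.31 for IFI6 and 0.52 for IFI27. Not every library correlated best with its own number, and the highest correlation was 0.23, between siMTFP1 library 2 and NC library 1. Unknown depth and 2 decimals limit statements on genes near 0.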
